A study of Homo sapiens with 12 samples.

Results

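CXCL8, ICAM1 and IL32 are 3 inflammatory genes among the 666 genes of the deposited RNA-seq table, and were taken by their symbols, with 1 row each. All 3 are among the 533 genes tested here. RNA was sequenced from 12 libraries of cells transfected with an empty vector (Vector), wild-type MSX1 (MSX1), or MSX1 with the acetylated lysine exchanged (K139R or K139Q), with 3 libraries for each plasmid. MSX1 is a homeobox transcription factor of the developing palate. Arginine in K139R cannot be acetylated and stands for the deacetylated protein, whereas glutamine in K139Q resembles acetylated lysine. Every group received a plasmid by transfection and shares a labelled time of 8 h. The labels name the cells as HEPM, a line of human embryonic palatal mesenchymal cells, and the table carries human gene identifiers, although the study's text describes mouse MEPM cells. The library names of the K139R and K139Q samples name a substitution at another residue of MSX1, and the groups here follow the titles and genotypes. The plasmids carry full-length MSX1, and each library holds the RNA of a transfected population in which untransfected cells were not described as removed. Of 19 markers fixed for palatal mesenchyme the table lists only COL1A1 and MSX1 itself, so the labelled cell type could not be checked further.

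Inflammatory genes of this kind couple damaged or stimulated mesenchyme to the immune system. CXCL8 (interleukin 8) is a secreted chemokine that attracts neutrophils through the receptors CXCR1 and CXCR2. ICAM1 is an adhesion molecule of the cell surface, a ligand of the leukocyte integrins LFA-1 and Mac-1, and holds leukocytes at the site to which chemokines call them. IL32 is a cytokine that is made inside many non-immune cells and can induce other cytokines. In human cells CXCL8 and ICAM1 are textbook targets of the transcription factor NF-kappa-B, which is activated by cytokines and by stress, and CXCL8 transcription also draws on AP-1, the FOS and JUN dimer.

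The 250 bases before the annotated start of each gene are shown because all 3 genes were higher than Vector in each group that received MSX1. They are RefSeq promoter windows of build GRCh38.p14, all on the plus strand, with capitals marking the motifs found by a search of both strands. The build used by the authors is not given in the sources used here.
CXCL8, chr4:73740319-73740568: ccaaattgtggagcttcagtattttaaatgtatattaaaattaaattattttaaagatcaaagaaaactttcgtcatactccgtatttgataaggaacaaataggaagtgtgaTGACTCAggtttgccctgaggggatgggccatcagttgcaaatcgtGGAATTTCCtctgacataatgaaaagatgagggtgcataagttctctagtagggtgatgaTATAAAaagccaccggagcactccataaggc
ICAM1, chr19:10270870-10271119: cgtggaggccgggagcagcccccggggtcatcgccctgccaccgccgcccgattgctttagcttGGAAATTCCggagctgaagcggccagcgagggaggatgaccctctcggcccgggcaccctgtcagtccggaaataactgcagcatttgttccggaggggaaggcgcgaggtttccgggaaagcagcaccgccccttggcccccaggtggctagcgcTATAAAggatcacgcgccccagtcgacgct
IL32, chr16:3065153-3065402: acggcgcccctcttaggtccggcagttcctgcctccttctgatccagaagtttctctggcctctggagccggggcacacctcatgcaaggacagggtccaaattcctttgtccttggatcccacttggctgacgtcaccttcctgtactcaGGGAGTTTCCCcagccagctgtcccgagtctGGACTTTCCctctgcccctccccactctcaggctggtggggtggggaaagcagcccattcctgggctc

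Each of these windows holds the letters GGANNTTCC, a short form of the NF-kappa-B site chosen after the sequences had been seen. It lies 91 to 83 bases before the start in CXCL8 and 186 to 178 bases before it in ICAM1. IL32 holds it at 98 to 90 and at 68 to 60 bases before the start, and its first copy overlaps the full NF-kappa-B consensus, which the other windows do not hold. Among 35116 promoter windows of the same length, 3.84% hold the short form and 9.96% the full consensus. The AP-1 letters TGANTCA are in the CXCL8 window, 137 to 131 bases before the start, and in 6.57% of all windows. The TATA box TATAAA is in the CXCL8 and ICAM1 windows and in 10.7% of all. TTGCNNAA, searched for C/EBP, and the homeodomain core TAATTG matched none of the members' windows, beside 9.05% and 6.70% of all. A second RefSeq window of IL32 matched none of these motifs. Only the NF-kappa-B pattern was given a short form. A match describes the letters alone, and the lack of a match does not show that a site for that factor is absent. In GENCODE v29 no other gene overlaps CXCL8, whereas AC011511.2 and AC011511.5 overlap ICAM1 on the other strand and IL32 is overlapped by RNU1-125P on its own strand and AC108134.3 on the other. The library kit keeps the strand, but the strand setting of the counting is not given in the sources used here, so reads of ICAM1 and IL32 may include some from these genes.

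MSX1 transcripts separated the Vector libraries from those labelled with an MSX1 plasmid, but their level does not show which form of MSX1 a library carries. MSX1 was at an expression value of 17.15 to 20.28 in the Vector libraries, 4672 to 6959 in MSX1, 5812 to 13561 in K139R and 8006 to 13893 in K139Q. The deposited table holds no raw counts and no library totals, so the depth of each library is unknown and no counting error can be attached to a value. It lists only genes that the authors had called between MSX1 and Vector, 480 higher and 186 lower in MSX1. The presence of a gene in the table and its direction in that comparison are therefore not independent evidence. The paper's rule for these calls also set a least fold change, so an unlisted gene may have changed by less. The ratios of means recovered here for CXCL8 and IL32 in MSX1 over Vector, 3.47 and 3.85, lie below the paper's stated cut. The reason was not tested. Against Vector the libraries of all MSX1 forms share the same 3 controls.

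CXCL8 was the gene of the 3 whose level rose in steps, with the lowest values in Vector, higher ones in MSX1 and the highest in the lysine mutants. Its expression value was 0.38, 0.20 and 0.15 in Vector replicates 1, 2 and 3. It was 0.96, 0.83 and 0.74 in MSX1 replicates 1, 2 and 3. In K139R it was 1.77, 1.82 and 2.08, and in K139Q 2.19, 2.25 and 1.38. Every MSX1 library thus lay above every Vector library, and all 6 mutant libraries lay above all 3 MSX1 libraries, while K139R and K139Q overlapped. Of the 533 genes tested, 485 did not overlap between MSX1 and Vector, in either direction. The same held for 141 genes between K139R and MSX1 and 109 between K139Q and MSX1. All CXCL8 values are low, and the deposited table resolves steps of 0.01.

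ICAM1 was higher than Vector with every form of MSX1, and the forms overlapped among themselves. Its expression value was 0.26, 0.29 and 0.11 in Vector replicates 1, 2 and 3 and 0.85, 0.75 and 1.40 in MSX1. It was 1.18, 0.98 and 1.60 in K139R and 1.99, 1.07 and 0.68 in K139Q. The Vector libraries lay below all others. Most genes tested also separated from Vector, in either direction (485 of 533 with MSX1, 358 with K139R and 397 with K139Q). K139Q held both the highest and the lowest of the 9 libraries with an MSX1 plasmid, with a mean of 1.25 ± 0.673 (SD, n = 3).

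IL32 had its highest group mean in wild-type MSX1 and its lowest in Vector. Its expression value was 0.95, 2.08 and 2.33 in Vector replicates 1, 2 and 3, and 8.10, 6.64 and 5.87 in MSX1. It was 6.29, 5.52 and 3.72 in K139R and 5.96, 5.82 and 7.01 in K139Q. No library with an MSX1 plasmid overlapped Vector. Such separation, in either direction, was found in 485 of the 533 genes tested with MSX1, 358 with K139R and 397 with K139Q. The nearest library to Vector was K139R replicate 3 at 3.72, and 3 of the 6 mutant libraries lay below all MSX1 libraries while none lay above them all.

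**Figure D1:**
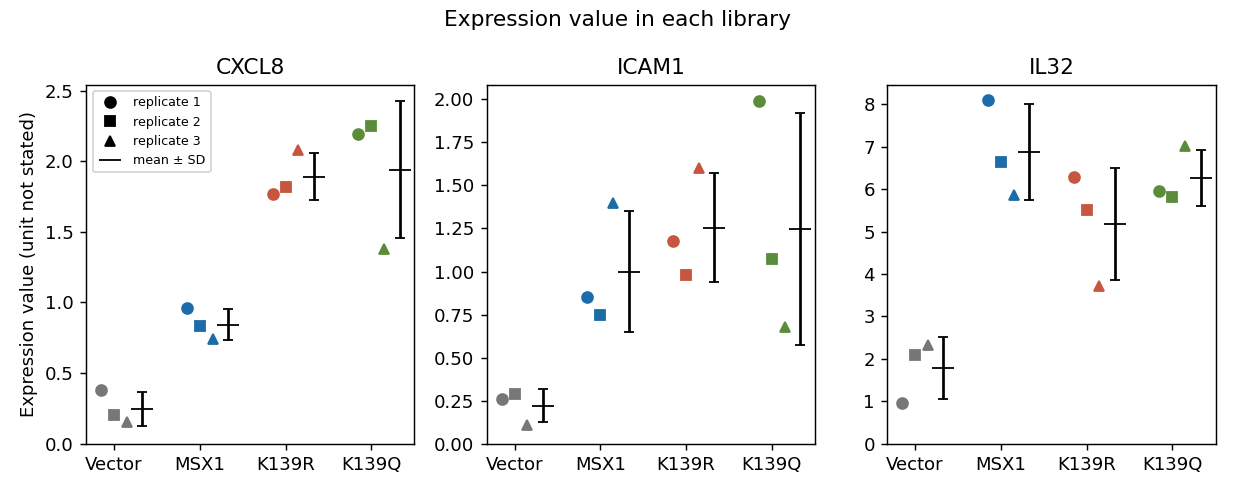
Expression value (vertical axis, unit not stated) of CXCL8, ICAM1 and IL32 in each of the 12 libraries by plasmid group, with the symbol giving the replicate number of the title and the bar the mean ± SD of 3 libraries. For each gene the Vector libraries sit below all others, and for CXCL8 the mutant libraries, from 1.38 to 2.25, sit above the MSX1 libraries, from 0.74 to 0.96. Of the 533 genes tested, 485 did not overlap Vector with MSX1, 358 with K139R and 397 with K139Q, in either direction. Against MSX1, 141 did not overlap with K139R and 109 with K139Q.

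All 3 genes passed as higher than Vector in each group that received an MSX1 plasmid. The test was limma on log2(value + 1), and p was adjusted (Benjamini-Hochberg) over the 533 genes whose mean reached 1 in any group. A gene passed at an adjusted p under 0.05. Of all genes tested, 67.7% passed as higher than Vector with MSX1, 60% with K139R and 64% with K139Q, so that 3 of 3 is not far from the table as a whole. CXCL8 passed the filter only through the mutant groups and ICAM1 only through groups with MSX1, where they were high, and IL32 had a mean above 1 in every group.

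For CXCL8 the mean rose from 0.243 ± 0.121 in Vector to 0.843 ± 0.111 in MSX1, 1.89 ± 0.166 in K139R and 1.94 ± 0.486 in K139Q (SD, n = 3 each). The log2 change over Vector was 0.57 (standard error 0.17, adjusted p = 0.0074 from limma) in MSX1, 1.22 (adjusted p = 8.9e-05) in K139R and 1.23 (adjusted p = 8.4e-05) in K139Q. As plain ratios of means these were 3.47, 7.77 and 7.97, since the added 1 shrinks the change of so low a gene. The rise in MSX1 was below the median of all genes, 0.77, and those in the mutants were above their medians of 0.65 and 0.69.

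For ICAM1 the mean rose from 0.220 ± 0.0964 in Vector to 1.00 ± 0.350 in MSX1 and 1.25 ± 0.316 in K139R (SD, n = 3 each). Its log2 change over Vector was 0.70 (standard error 0.22, adjusted p = 0.0090 from limma) in MSX1, 0.88 (adjusted p = 0.0039) in K139R and 0.84 (adjusted p = 0.0043) in K139Q. The ratios of means were 4.55, 5.70 and 5.67.

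For IL32 the mean rose from 1.79 ± 0.735 in Vector to 6.87 ± 1.13 in MSX1, 5.18 ± 1.32 in K139R and 6.26 ± 0.650 in K139Q (SD, n = 3 each). Its log2 change of 1.53 (standard error 0.23, adjusted p = 0.00016 from limma) in MSX1 was exceeded in size by 36 of the 533 genes. It was 1.16 (adjusted p = 0.0011) in K139R and 1.42 (adjusted p = 0.00023) in K139Q. The exact two-sided permutation test gave p = 0.1, the smallest that 3 libraries against 3 allow, for each of these 9 comparisons with Vector. Quantile normalization gives every library the same distribution, whereas the table was chosen to hold 480 genes higher and 186 lower in MSX1. It therefore shrinks differences from Vector and cannot tell a fragile call from a shared rise. With it the median change of all genes over Vector was 0.31 with MSX1, 0.13 with K139R and 0.17 with K139Q. Of the 9 calls, 5 were lost. These were CXCL8 in MSX1 (log2 change 0.27), ICAM1 in all 3 groups (0.39, 0.44 and 0.44) and IL32 in K139R (0.60).

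**Figure D2:**
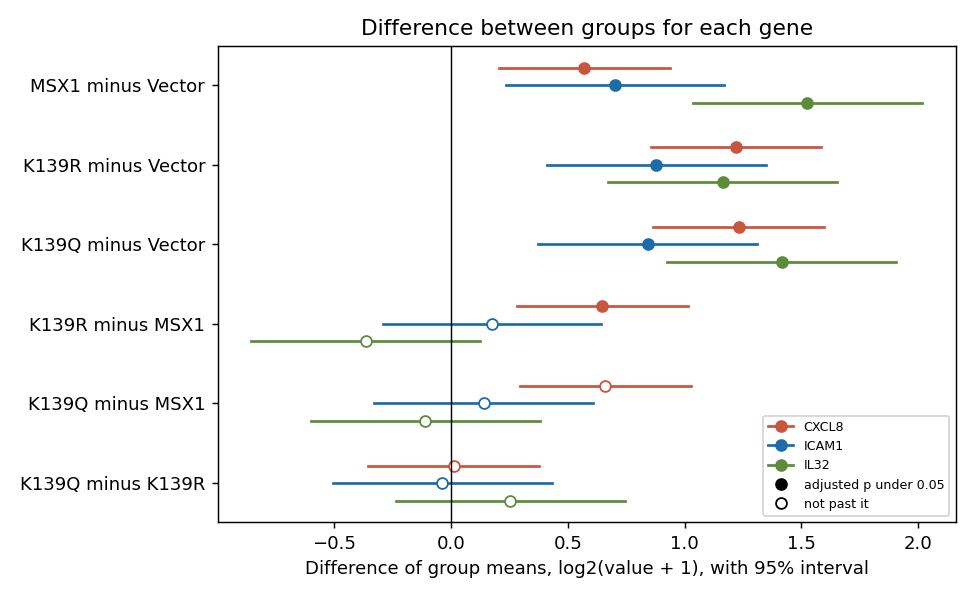
Difference of group means on log2(value + 1) for CXCL8, ICAM1 and IL32 in the 6 comparisons (rows), with lines for the 95% interval from limma and filled points for an adjusted p under 0.05. All 9 comparisons with Vector are filled, and of the others only CXCL8 in K139R minus MSX1.

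Of the 3 genes, CXCL8 was the only one that passed between a lysine mutant and wild-type MSX1, and only in K139R. These comparisons ask whether the acetylation state that a substitution mimics goes with another level of the gene. In K139R against MSX1, 1 of the 3 genes passed, beside 4.32% of all genes in either direction. CXCL8 was higher in K139R, with a log2 change of 0.65 (95% interval 0.28 to 1.01, adjusted p = 0.046 from limma) and a ratio of means of 2.24. It had entered the test only through the means of the mutant groups, the side that is higher here. ICAM1 had a log2 change of 0.18 (95% interval -0.29 to 0.64, adjusted p = 0.61) and IL32 of -0.36 (95% interval -0.85 to 0.13, adjusted p = 0.32), and neither passed. The exact permutation p was 0.1 for CXCL8, 0.4 for ICAM1 and 0.2 for IL32 (two-sided, the smallest possible being 0.1).

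The CXCL8 call in K139R lay close to the threshold and did not survive most other settings. With the replicate number of the titles, which the labels also give as a batch, entered as a block, its adjusted p was 0.072 from limma at the same log2 change. Without MSX1 replicate 1, 2 or 3 it was 0.12, 0.11 and 0.13, and without K139R replicate 2 or 3 it was 0.15 each, whereas without K139R replicate 1 it was 0.020, and there the share of all genes that passed was 26.1% in place of 4.32%. The log2 change stayed between 0.60 and 0.69 in all of these.

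In K139Q against MSX1 CXCL8 was higher by 0.66 on the log2 scale (95% interval 0.30 to 1.03), a ratio of means of 2.30. Its adjusted p of 0.099 from limma did not pass, beside 0.938% of all genes that did in either direction. Without K139Q replicate 3, the mutant library with the least CXCL8, the change was 0.81 and passed (adjusted p = 0.036). ICAM1 differed by 0.14 (95% interval -0.33 to 0.61, adjusted p = 0.82) and IL32 by -0.11 (95% interval -0.60 to 0.38, adjusted p = 0.86). The exact permutation p was 0.1, 0.7 and 0.6 for CXCL8, ICAM1 and IL32.

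K139Q and K139R, the opposite mimics, were close for CXCL8, with a log2 difference of 0.01 (95% interval -0.35 to 0.38, adjusted p = 0.99 from limma). For ICAM1 it was -0.04 (95% interval -0.50 to 0.43, adjusted p = 0.95) and for IL32 0.25 (95% interval -0.24 to 0.74, adjusted p = 0.68). In that comparison 0.188% of all genes passed in either direction. The exact permutation p was 1, 0.9 and 0.4.

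MSX1 transcript levels and the relation of expression values to GC content also varied among the libraries. MSX1 transcripts were higher in every K139Q library than in any MSX1 library, and 109 of the 533 genes tested separated there in either direction. They overlapped between K139R and MSX1. Neither difference passed (adjusted p = 0.28 for K139Q and 0.32 for K139R, from limma). The part of MSX1 transcripts in the CXCL8 level was not tested. The longest annotated transcript of CXCL8 has a GC content of 33.4%, and 3 of the 510 tested genes with a known GC content lie lower. ICAM1 at 56.9% and IL32 at 58.7% lie near the median of 57.0%. For each library a slope on GC content across genes was taken of the log2 value minus the gene's mean over the 12 libraries. These slopes are relative to the other libraries. Per 10 percentage points and with no test, the slope was -0.29 to -0.23 in Vector, 0.15 to 0.30 in MSX1, -0.32 to 0.23 in K139R and -0.02 to 0.24 in K139Q.

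With that trend removed from each library, CXCL8 had a log2 change of -0.07 in K139R against MSX1 (adjusted p = 0.89 from limma) and of 0.37 in K139Q against MSX1 (adjusted p = 0.52). Its change over Vector became 1.69 in MSX1, 1.62 in K139R and 2.06 in K139Q. ICAM1 and IL32 moved less, with changes over Vector of 0.62 and 1.35 in MSX1, 0.85 and 1.10 in K139R and 0.78 and 1.29 in K139Q. The trend was fitted on genes that the authors had called between MSX1 and Vector, so it cannot be separated from those changes. CXCL8 lies near the lower end of GC content, where the removal moves a gene most. The part of the GC trend in the CXCL8 differences was not tested further.

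**Figure D3:**
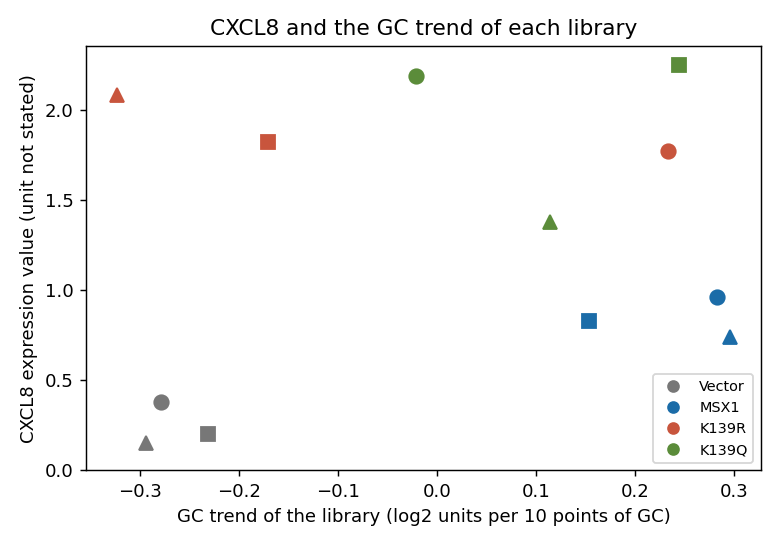
CXCL8 expression value (vertical axis, unit not stated) against the GC slope (horizontal axis, log2 units per 10 percentage points) for each of the 12 libraries. The slope across genes is that of the log2 value minus the gene's mean over all libraries, so it is relative to the other libraries. Symbols give the replicate number as before. The Vector libraries, with slopes of -0.29 to -0.23, lie at 0.15 to 0.38, the MSX1 libraries, with slopes of 0.15 to 0.30, lie at 0.74 to 0.96, and the mutant libraries spread from -0.32 to 0.24 and lie at 1.38 to 2.25.

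Part of the wider inflammatory programme is in the table. Of 308 genes in lists of chemokines, cytokines, their receptors, leukocyte adhesion, NF-kappa-B signaling, inflammatory targets, interferon response, pattern sensing and AP-1 or C/EBP factors, 20 are listed and 16 were tested. The share of all genes that is listed was not set beside this count or those of single lists below. These counts therefore do not show whether inflammatory genes are listed less or more often than other genes. A gene that is not listed was not called by the authors between MSX1 and Vector. That gives neither its level nor whether it changed by less than their cut. Over Vector, 15 of the 16 rose with MSX1, 14 with K139R and 15 with K139Q, and none passed as lower. The share of all tested genes that passed as higher was 67.7%, 60% and 64% in these comparisons, in a table whose genes were chosen on the first of them, and nothing particular to the inflammatory genes is read from the counts. Their median log2 changes were 0.94, 0.84 and 0.94, beside 0.77, 0.65 and 0.69 for all genes tested. IL16 did not pass in any of the 3 groups, and NLRC5, a regulator of MHC class I genes, did not pass in K139R. The other 4 listed genes were below the filter and were not tested. The integrin gene ITGAX had means of 0.08 in Vector, 0.45 in MSX1, 0.58 in K139R and 0.493 in K139Q. TLR9, a sensor of DNA, had means of 0.0467, 0.267, 0.187 and 0.08 in that order. The inflammasome gene NLRP3 had its highest mean in Vector, with 0.517, 0.24, 0.257 and 0.197, and its MSX1 and K139Q libraries all lay below the Vector libraries. Among the 533 genes tested, 485 did not overlap between MSX1 and Vector and 397 between K139Q and Vector, in either direction.

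CXCL8 is the one listed chemokine of 37. None of the 42 receptors for chemokines and cytokines, CXCR1 and CXCR2 among them, and none of the 39 genes of the NF-kappa-B pathway is in the table. Of 44 cytokines the table lists IL32, IL16 and IL11, a cytokine of the IL-6 family made by fibroblasts. IL11 rose from 0.593 ± 0.10 in Vector to 3.8 ± 0.249 in MSX1, 3.60 ± 2.0 in K139R and 4.40 ± 1.14 in K139Q (SD, n = 3 each), a log2 change of 1.59 in MSX1 (adjusted p = 0.00022 from limma). On log2(value + 1) IL11 and IL32 thus rose by a similar size with MSX1, but the added 1 shrinks the change of IL11, the lower in Vector, more. IL16, a chemoattractant of T cells, had a mean of 1.80 in Vector and 0.760 in MSX1 (log2 change -0.67, adjusted p = 0.057 from limma).

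ICAM1 was listed together with its genomic neighbours ICAM4 and ICAM5, further members of the adhesion family. They follow one another on chromosome 19, with one long noncoding gene, ICAM4-AS1, between ICAM1 and ICAM4. ICAM4, a red cell adhesion molecule, rose from 0.917 ± 0.199 in Vector to 2.72 ± 0.835 in MSX1 (log2 change 0.94, adjusted p = 0.0014 from limma). ICAM5, best known from neurons of the forebrain, rose from 7.55 ± 1.72 to 17.2 ± 4.11 (log2 change 1.09, adjusted p = 0.0015). In K139R the log2 changes over Vector were 0.63 for ICAM4 and 1.03 for ICAM5, and in K139Q 0.82 and 0.98, all of which passed.

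Among the other inflammatory targets is HMOX1, the stress-induced heme oxygenase. On log2(value + 1) it had the largest change over Vector of the 16 genes in each of the 3 groups. The added 1 shrinks the changes of low genes more, so this is not a ranking by ratio of means. HMOX1 rose from 27.6 ± 7.22 in Vector to 97.4 ± 11.5 in MSX1, 113 ± 21.3 in K139R and 125 ± 14.5 in K139Q (log2 change 1.81 in MSX1, adjusted p = 2.5e-05 from limma). PTGES, a prostaglandin E synthase, TNFAIP2, a TNF-induced gene, PLAU, the urokinase, and ZC3H12A, an RNase that degrades inflammatory mRNA, rose by 0.85, 0.77, 0.58 and 0.95 in MSX1. The interferon-induced gene IFI35 rose by 1.05 and was the only listed one of 47 genes of the interferon response. Of the AP-1 factors, FOSB rose by 1.06 and JUNB by 1.61 in MSX1.

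Against MSX1, CXCL8 was the 1 gene of these 16 that passed in K139R, beside 4.32% of all tested genes, and FOSB the 1 that passed in K139Q, beside 0.938%. The CXCL8 call held under 3 of the 15 other settings tried. FOSB was at 3.38 ± 0.872 in MSX1, 4.73 ± 0.851 in K139R and 7.39 ± 0.921 in K139Q (SD, n = 3 each). Its log2 change against MSX1 was 0.95 in K139Q (adjusted p = 0.021 from limma) and 0.39 in K139R (adjusted p = 0.20). Between K139Q and K139R its log2 difference of 0.56 did not pass (adjusted p = 0.43).

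**Figure D4:**
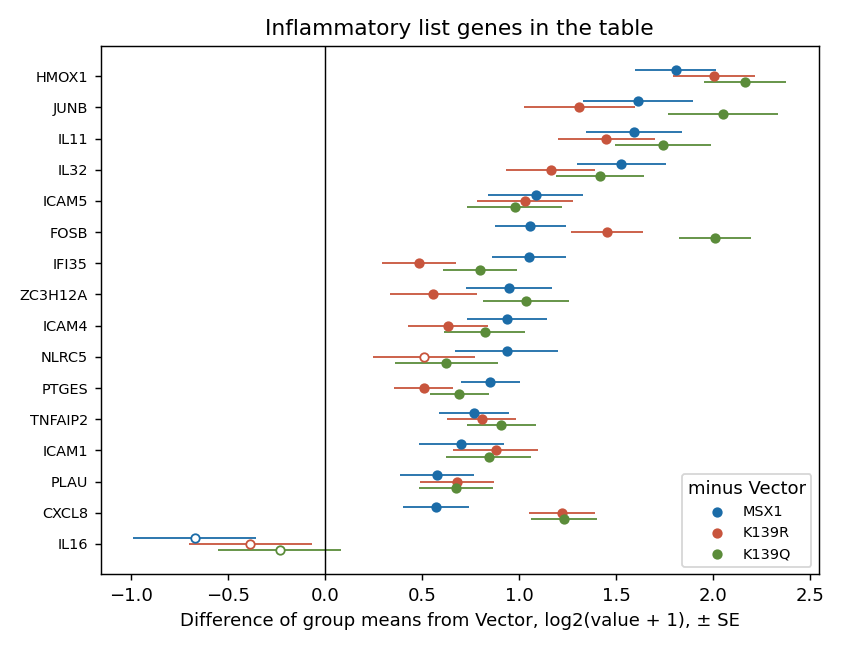
Difference of group means from Vector on log2(value + 1), with standard errors, for the 16 inflammatory list genes tested (rows), in MSX1, K139R and K139Q, with open points where the adjusted p was not under 0.05. The points of IL16 lie below 0 and are open, NLRC5 is open in K139R, and all others are filled and above 0, with CXCL8 at 0.57 in MSX1 and 1.22 and 1.23 in the mutants.

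Genes with the pattern most like each member were found by the mean absolute difference over the 12 libraries of log2(value + 1) relative to the Vector mean. For CXCL8 the nearest were AHNAK, NKX1-2, CA12, LINC00958 and WNT9A, at 0.18 to 0.20 log2 units, beside a median of 0.43 over all genes. For ICAM1 they were CD37, RASA4DP, MYORG, PPP2R2C and FBLN2, at 0.15 to 0.17 with a median of 0.38. For IL32 they were H19, SULT1A1, MCAM, EFNA3 and MAFA, at 0.17 to 0.24 with a median of 0.62. All genes share the same libraries and were chosen on the same comparison. Among the members CXCL8 and ICAM1 were 0.25 apart, CXCL8 and IL32 0.47, and ICAM1 and IL32 0.56.

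CXCL8 and ICAM1 are also known from endothelium and epithelium, whose markers were checked. Of 13 epithelial markers EPCAM and KRT17 are listed, and their summed expression value was 2.29 to 2.71 in Vector, 7.0 to 7.35 in MSX1, 6.19 to 6.95 in K139R and 6.17 to 6.90 in K139Q. None of 12 endothelial markers is listed. COL1A1, the listed mesenchyme marker besides MSX1, was at 3.6 to 5.14 in Vector and 7.75 to 12.47 in MSX1. It was at 5.29 to 8.69 in K139R and 7.6 to 11.36 in K139Q. All listed markers are in the table because the authors called them between MSX1 and Vector, so their rise with MSX1 is not independent evidence. The EPCAM and KRT17 sums and COL1A1 moved with the rise over Vector, and their part in it was not tested. In bulk RNA a change in the share of cells and a change of RNA per cell cannot be told apart.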

How the data were processed

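Total RNA was sequenced by the authors after poly(A) selection with a stranded kit. RSEM is named in the submitters' processing notes and featureCounts in the paper's methods. The table deposited by the authors holds scores: the logarithm of each value plus 1, centred per gene across the 12 libraries and divided by its SD. Values in steps of 0.01 were recovered from the scaling for 665 of 666 genes, all except RN7SL1, and checked on simulated data. The unit of these values is not given in the sources used here. The lowest solution was taken, and any other needs all 12 values plus 1 to share a factor.

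Genes whose mean reached 1 in any group entered limma 3.58.1 (R 4.3.3) on log2(value + 1), all 12 libraries in one fit, for 6 comparisons, with Benjamini-Hochberg adjustment over 533 genes. Single genes also had exact permutation tests. The study's methods call the replicates biological and say no more of their source, so p-values measure the spread between these libraries. Members, lists and alternatives were chosen with earlier results of these data known. Genes named were the members, MSX1, listed genes of the lists and the 5 nearest patterns per member. Alternatives were pseudocounts of 0.1 and 5, no filter, quantile normalization, removal of a GC trend (longest GENCODE v29 transcript), the deposited scores themselves, only the groups compared, 2 replicate blocks and leaving out each library.

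The columns MSX1_1 and MSX1_2 were matched by library name, whose numbers are exchanged in the titles, and replicate numbers here are those of the titles. The labels give these numbers as a batch. Deviations from group means of same-numbered libraries correlated at -0.02 on average over genes, beside 0.01 for differently numbered ones. The leukocyte marker list and 1 list gene below the filter are not reported here.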

Additional observations from a re-analysis of the deposited data

How the results depend on the processing

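Of 270 recomputed values for the 3 genes, 252 kept their side of the threshold, 16 calls were lost, 1 was gained and 1 turned direction. All calls of CXCL8, ICAM1 and IL32 over Vector held under every setting except quantile normalization, where CXCL8 in MSX1 fell to 0.27, ICAM1 to 0.39 in MSX1 and 0.44 in each mutant, and IL32 in K139R to 0.60. CXCL8 in K139R over MSX1 lost its call with pseudocounts of 0.1 (1.08) and 5 (0.24), with the deposited scores (1.23 score units), with only the groups compared and with the replicate block by the titles' or the library names' numbers (0.65 each, adjusted p = 0.077, 0.072 and 0.082 from limma). Its change turned to -0.075 with the GC trend removed. Leaving out one library gave 0.60 to 0.69 for it and 0.58 to 0.81 for CXCL8 in K139Q against MSX1. The cause was not tested.

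The share of tested genes past the adjusted p over Vector, 65.5% in K139R and 73.4% in K139Q, was 34.3% and 43.3% under quantile normalization. In K139R against MSX1 it was 4.32%, and 1.5% and 1.69% with pseudocounts of 0.1 and 5, 6.91% of all 666 genes with the deposited scores, 0% with only the groups compared, and 1.13% and 0% with the replicate block of titles and of library names. By limma, 137 genes there had an unadjusted p under 0.05. In K139Q against MSX1 it was 0.938%, and 0.563% with a pseudocount of 0.1, 0.45% with the deposited scores, 1.5% with only the groups compared, and 0.563% and 0.188% with the replicate block. In K139Q against K139R it was 0.188%, and 0% with a pseudocount of 5, quantile normalization, the deposited scores and only the groups compared, beside 49 genes at an unadjusted p under 0.05. Leaving out one library gave 0% to 26.1%, 0.375% to 1.88% and 0.188% to 4.88% in these 3 comparisons. The 26.1% and 4.88% came without K139R replicate 1, the 1.88% without K139Q replicate 3, and the 0% without MSX1 replicate 1 or 2 or K139R replicate 2 or 3. Depth is unknown, so the counting error of values near 0 could not be given.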
